A study of Danio rerio with 2 samples.

Results

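The cells described here are the mamdc2b-positive cells of the adult zebrafish jaw joint, which carry the working name of mamdc2b-positive dermal fibroblasts. They were taken from the library enriched for trps1:eGFP, as barcodes with 500 to 2000 detected genes and at most 5% of unique molecular identifiers (UMIs) on mitochondrial genes. A cell was counted in when it held at least 2 UMIs of mamdc2b, at least 1 UMI of fmoda or ccdc80l2, and fewer than 3 UMIs of epcam. This gate found 179 cells among 3919 kept cells of the library, or 4.57% (exact Clopper-Pearson 95% interval 3.94 to 5.27%), and among 4161 kept cells of the series. The cells were chosen by these measured UMI counts, so the levels of mamdc2b, fmoda, ccdc80l2 and epcam, and every comparison of these cells with other cells of the same library, are descriptions with no test.

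Fibroblasts of the skin and of loose connective tissue make and organise the extracellular matrix. They secrete collagens, which assemble into fibrils, and small leucine-rich proteoglycans, which bind those fibrils and set their spacing. They also release ligands, binding proteins and enzymes that act on neighbouring cells. Among the gate genes, mamdc2b encodes a protein with MAM domains whose human counterpart is a matrix proteoglycan, fmoda encodes fibromodulin, a collagen-binding small proteoglycan, and ccdc80l2 belongs to the family of the secreted matrix protein Ccdc80. The product of epcam is an adhesion molecule of epithelial cells.

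Both libraries came from 3-month-old double transgenic zebrafish, sox10:DsRed;trps1:eGFP, whose 50 micro-dissected jaw joints were dissociated and sorted by flow cytometry. The trps1:eGFP-enriched library held live GFP-positive cells and the sox10:DsRed-enriched library live DsRed-positive cells with or without GFP. The first transgene is a gene trap at trps1 that broadly marks mesenchymal cells of the joint, and the second marks some of its chondrocytes. All fish carried both transgenes, and the series has no further genotype or treatment group. Each sort is 1 library of pooled joints, so there is no replicate, no spread between animals and no p-value, and all intervals below are exact 95% intervals that cover counting error only. The trps1:eGFP-enriched library held 4876 barcodes with a median of 3055 UMIs, and the sox10:DsRed-enriched library 462 barcodes with a median of 1282 UMIs, of which 242 were kept. Both libraries shared 16 barcodes, and 0 of these were mamdc2b-positive cells. None of the 242 kept cells of the sox10:DsRed-enriched library met the gate. With a floor of 3 cells this allows a share of up to 1.24%, a bound that is not an exact interval.

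The mamdc2b-positive cells were deeper than the cells around them. They held 1478 UMIs at least, 5138 at the median and 9034 at most, with a median of 1413 genes, against medians of 3432 UMIs and 954 genes in the 3390 other kept cells with fewer than 3 epcam UMIs. The gate asks for 3 UMIs in all, and its share of cells moved with depth: it took 25 of 1307 cells (1.91%) in the shallowest part of the library, 47 of 1306 (3.60%) in the middle part and 107 of 1306 (8.19%) in the deepest part. After each cell was thinned to 1000 UMIs, the median was 485 genes in mamdc2b-positive cells and 441 genes in the other cells. The mitochondrial share was alike, with medians of 0.727% and 0.649%. Levels below are therefore given as UMIs scaled to a fixed total (CPM, counts per 1e6 UMIs), summed over the cells of each side, and shares of cells with a UMI are given also at 1000 UMIs for the main genes.

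Of the 179 cells, 89 held UMIs of both fmoda and ccdc80l2, 37 of fmoda only and 53 of ccdc80l2 only, and 32 sat at the lower limit of exactly 2 mamdc2b UMIs. Epcam was at 0 UMIs in 143 cells, at 1 in 31 and at 2 in 5, and only 1 further cell was left out by the epcam limit. The level of mamdc2b was 1483 CPM (1405 to 1564) in these cells and 51.6 CPM (47.8 to 55.7) in other cells with fewer than 3 epcam UMIs, and the UMIs per mamdc2b-positive cell were 2, 5 and 27 at the lowest, the median and the highest. For fmoda the levels were 392 and 20.6 CPM, and for ccdc80l2 360.3 and 11.6 CPM. The relatives of these genes differed less. The level of mamdc2a was 6.59 CPM in mamdc2b-positive cells and 21.1 CPM in the other cells, that of ccdc80 was 111 and 95.1 CPM, and fmodb had 0 UMIs in both. Ccdc80l1 was low, at 22.0 and 5.75 CPM, and its position past 2-fold was lost under several settings.

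The label was set against marker genes of the cell types the sort could hold. All 12 genes of a general fibroblast list had UMIs in the mamdc2b-positive cells, with a summed level of 37905 CPM against 20228 CPM in other cells with fewer than 3 epcam UMIs. Of these 12 genes, 5 were at least 2-fold higher and 0 lower. Much of the sum came from col1a1a, col1a1b and col1a2, which did not pass 2-fold. All 8 measured osteoblast markers were at least 2-fold lower, with summed levels of 152 and 6219 CPM. The chondrocyte list summed to 41.7 and 78.5 CPM, and the superficial chondrocyte list to 270 and 1144 CPM. Of 10 smooth muscle and pericyte markers 8 had UMIs. Their sums were 654 and 814 CPM, so this list did not set the cells clearly apart, though acta2 and kcne4 were at least 2-fold lower. Skeletal muscle markers summed to 14.3 and 13.7 CPM. Of 7 neuron and 7 erythrocyte markers, 1 of each list had UMIs. Of 8 endothelial markers 5 had UMIs, with summed levels of 92.3 and 85.2 CPM, while pecam1, cdh5 and plvapa were at 0 UMIs. Of 12 immune markers 5 had UMIs, with sums of 35.2 and 57.2 CPM, and ptprc, lcp1 and mpeg1.1 were among the 7 at 0. The 8 glia markers, of which 4 had UMIs and mpz, foxd3, s100b and erbb3b were at 0, summed to 35.2 and 18.3 CPM, and the 12 pigment cell markers, of which 10 were at 0, to 5.49 and 3.68 CPM. The ligament list summed to 1046 CPM against 523 CPM, through ctgfa at 948 CPM, while the tendon and ligament genes scxa and tnmd had 2 and 16 UMIs in all 179 cells. The epithelial list summed to 12487.5 and 17584 CPM, and of its 8 measured genes only krt5 was at least 2-fold lower. This list did not set the cells clearly apart from those other cells. It summed to 83153 CPM in the 350 cells with 3 or more epcam UMIs. Of its genes, krt5 was at 131 CPM and cdh1 at 5.49 CPM, against 28899 and 536 CPM in those 350 cells. Icn, krt4 and krt91 had UMIs in over 80% of both the mamdc2b-positive and the other cells. These values describe a fibroblast-like cell. The RNA does not tell a dermal position, and mamdc2b, fmoda and ccdc80l2 were used by the gate, so the name mamdc2b-positive cells is used from here.

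A clustering of both libraries placed the cells together. With 38 dimensions and a resolution of 0.9, 16 clusters were found, and 165 of the 179 cells (92.2%, 87.2 to 95.7%) fell in a cluster of 334 cells led by mamdc2b, fmoda, zgc:113307 and ccdc80l2. With the gate genes left out of the variable features, 164 cells (91.6%) fell in a cluster of 367 cells led again by mamdc2b and zgc:113307. The gated cells made up 49.4% of the first cluster. Median depth was 5138 UMIs in these gated cells and 3045 UMIs in the remaining 169 cells of the cluster, which were shallower and gave lower levels of some genes. Ca6 was at 2597 CPM in the gated cells of the cluster and 1302 CPM in its remaining cells, and postnb at 3184 and 1348 CPM, while tat, which codes for tyrosine aminotransferase, was at 2222 and 2198 CPM. The 14 gated cells outside the cluster held less of the accompanying genes, with ca6 at 593 CPM and VIT at 27.0 CPM.

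Of 6731 genes measured (100 or more UMIs in the kept cells of the library), 309 (4.59%) were at least 2-fold higher and 360 (5.35%) at least 2-fold lower in mamdc2b-positive cells than in all other kept cells, with 10 CPM added to both sides. That other side includes the 350 cells with 3 or more epcam UMIs, which the gate leaves out, so they were left out of it for the comparisons that follow. Then 260 genes (3.86%) were at least 2-fold higher and 220 (3.27%) at least 2-fold lower, and the median log2 ratio over all genes was 0.06. A gene under 10 CPM in the other cells cannot be called lower on this scale, which leaves 4973 genes that could be.

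Past the gate genes, the gene with the highest ratio was one that the annotation names by clone only, with the identifier LL0000025500; the plot of leading genes has it in the row after ccdc80l2. It was at 424 and 22.9 CPM (log2 ratio 3.72), with UMIs in 70.9% of mamdc2b-positive cells and 6.11% of the other cells. This rank, like the 15 highest, was taken among genes of at least 100 CPM and with a UMI in at least 25% of mamdc2b-positive cells. Ca6, postnb, wfdc2 and VIT were also among those 15, and are given in full. Ca6 encodes a carbonic anhydrase that is secreted in mammals. It was at 2433 CPM (2333 to 2537) in mamdc2b-positive cells and 246 CPM (238 to 255) in the other cells, a log2 ratio of 3.25, and had UMIs in 94.4% and 37.4% of cells, with 83.2% and 17.9% at 1000 UMIs. The UMIs of ca6 per cell were 0, 10 and 47 at the lowest, the median and the highest. Postnb, a periostin gene whose product binds collagen and cell receptors, was at 3002 CPM (2891 to 3117) and 411 CPM (399.8 to 422), a log2 ratio of 2.84, with 0, 12 and 76 UMIs per mamdc2b-positive cell at the lowest, the median and the highest. Wfdc2, a small secreted protein of the whey acidic protein family, was at 1175 and 149 CPM (log2 ratio 2.90). VIT encodes vitrin, a matrix protein, and was at 425 and 43.3 CPM (log2 ratio 3.03). Against the glis1b and rfx2 cells described further on, the lowest log2 ratio of these 4 genes was 3.10, for ca6.

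Other genes of high rank had various levels and shares of cells. Paplnb, a papilin gene of the matrix, was at 187 and 7.44 CPM but in only 29.1% of mamdc2b-positive cells. Fsta encodes follistatin, which binds activins, and was at 224 and 12.5 CPM. Cyr61l1, of the CCN family of matricellular proteins, was at 292 and 25.5 CPM. Cyba, a membrane subunit of the NADPH oxidase, was at 245 and 20.6 CPM, and the chemokine gene ccl44 at 682 and 89.4 CPM. Stc2a, a stanniocalcin gene, was at 154 and 14.7 CPM, and fgl1, a fibrinogen-like gene, at 793 and 119 CPM. Fgl1 also led another cluster, of 167 cells with 4 mamdc2b-positive cells, so its high level is not read as particular to the gated cells. The gene zgc:113307, which the annotation names by cDNA only, was at 554 and 39.3 CPM, with UMIs in 74.3% and 9.20% of cells, and in 34.6% and 3.57% at 1000 UMIs. Agtr2, an angiotensin receptor, was at 522 and 88.3 CPM, and asip1, an agouti signalling gene, at 2254 and 456 CPM with UMIs in 98.3% and 55.6% of cells, or 78.8% and 29.1% at 1000 UMIs. In the cluster led by mamdc2b, asip1 was at 2375 CPM in the gated cells and 1914 CPM in the remaining 169 cells. Fgl1 was at 825 and 622 CPM there. Il13ra2, in mammals a decoy receptor for interleukin 13, was at 324 and 24.2 CPM but in 23.5% and 3.13% of cells, with 0, 0 and 64 UMIs per mamdc2b-positive cell at the lowest, the median and the highest.

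Several of these genes were also measured in the cells with 3 or more epcam UMIs. Aqp3a, a channel for water and glycerol, was at 4534 CPM in mamdc2b-positive cells and 663 CPM in the other cells with few epcam UMIs, and at 2141 CPM in the epcam cells. Postnb had a UMI in 98.9% of mamdc2b-positive cells and 81.4% of the epcam cells, and VIT in 60.9% and 14.6%, and the median depth was 5138 UMIs in mamdc2b-positive cells against 6148 in the epcam cells, where col7a1 was at 76.6 CPM. Ca6, wfdc2 and zgc:113307 were at 69.5, 14.6 and 5.17 CPM in those cells. The plot of leading genes shows these levels for each group.

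**Figure D1:**
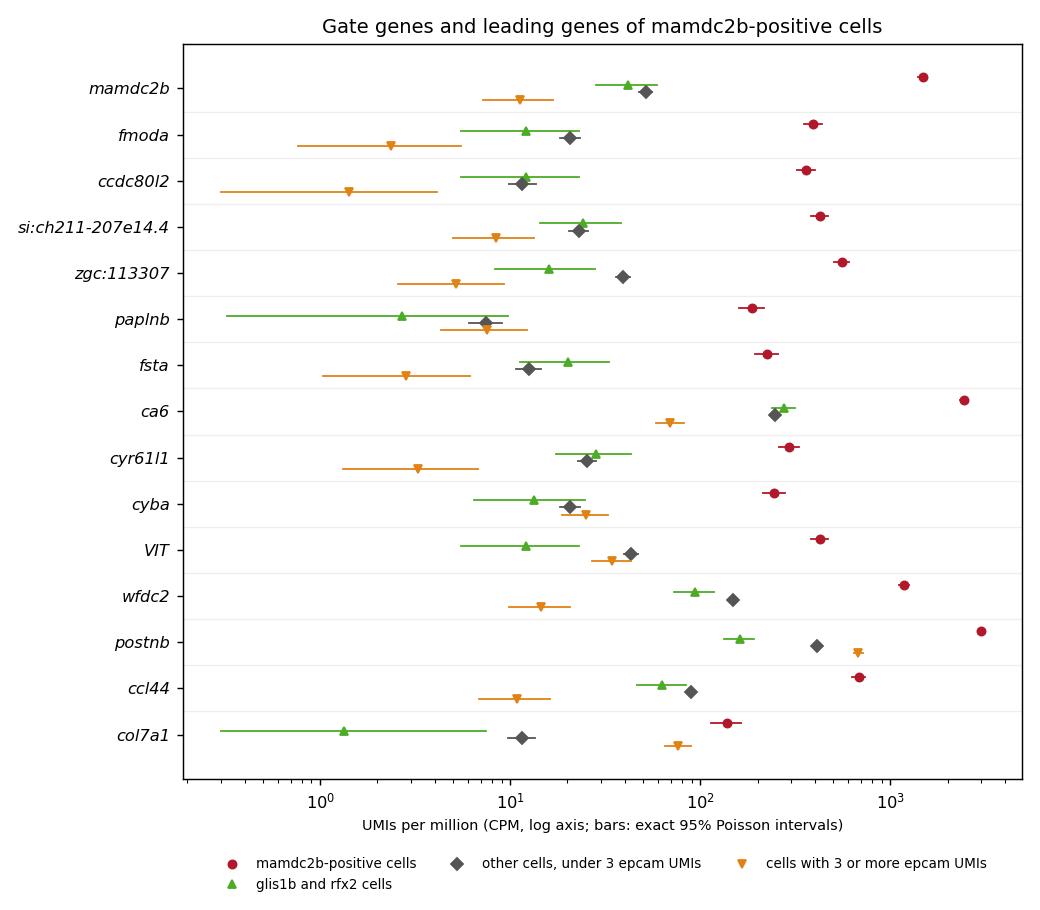
Level of the gate genes and of leading genes (CPM, log axis) in mamdc2b-positive cells, the 161 glis1b and rfx2 cells, the other cells with fewer than 3 epcam UMIs and the 350 cells with 3 or more epcam UMIs; bars are exact 95% Poisson intervals. The genes shown are gate genes or were picked for high ratios in these same cells, so a high level there was set by the choice. The mamdc2b-positive cells lie to the right of every other group for all 15 genes, and the narrowest margin is that of col7a1 against the epcam cells.

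The genes with the lowest ratios included bone matrix genes. Bglap, which encodes osteocalcin, was at 13.2 and 3316 CPM, spp1, an osteopontin gene, at 98.9 and 1552 CPM, and the type X collagen genes col10a1a and col10a1b at 28.6 and 65.9 CPM against 1142 and 2629 CPM. Bglapl, a relative of bglap, was at 62.6 and 1326 CPM. In the clustering, bglap, col10a1b, col10a1a, bglapl and spp1 led a cluster of 253 cells that held no mamdc2b-positive cell. Bglap had a UMI in 4.47% of mamdc2b-positive cells and 4.86% of the epcam cells, spp1 in 35.8% and 36.9%, col10a1a in 14.0% and 18.0%, and col10a1b in 28.5% and 27.7%, at median depths of 5138 and 6148 UMIs. These shares are not read as expression, since epithelial cells should lack these bone genes, and free RNA was not measured. Bgna, a biglycan gene, had 2 UMIs in all 179 cells, against 211 CPM in the other cells. Coch, an extracellular matrix gene, was at 7.69 and 188 CPM, and led a cluster of 118 cells with no mamdc2b-positive cell. Bglap and coch had a UMI in 10.7% and 4.48% of the other cells. The 105 cells with 2 or more mamdc2b UMIs and no fmoda or ccdc80l2 held no more bglap, coch, spp1 or col10a1b than mamdc2b-positive cells. They held more col10a1a, bglapl and bgna. Low bglap and coch are therefore not read as particular to mamdc2b-positive cells. Gyg1b, a glycogenin that starts glycogen chains, was at 29.7 CPM (19.5 to 43.2) and 433 CPM (422 to 445), and had a UMI in 8.38% and 39.5% of cells, 1.12% and 23.3% at 1000 UMIs, and in 14.3% of epcam cells. Clic2, a chloride channel family gene, was at 26.4 and 369.7 CPM, the keratin gene krt94 at 19.8 and 279.6 CPM, and CR855311.1, known by its clone name only, at 31.9 and 469 CPM. Phex, a bone gene, and col5a2b had 0 UMIs in mamdc2b-positive cells, which with a floor of 3 UMIs over the group made them at least 12.6-fold and 9.96-fold lower.

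**Figure D2:**
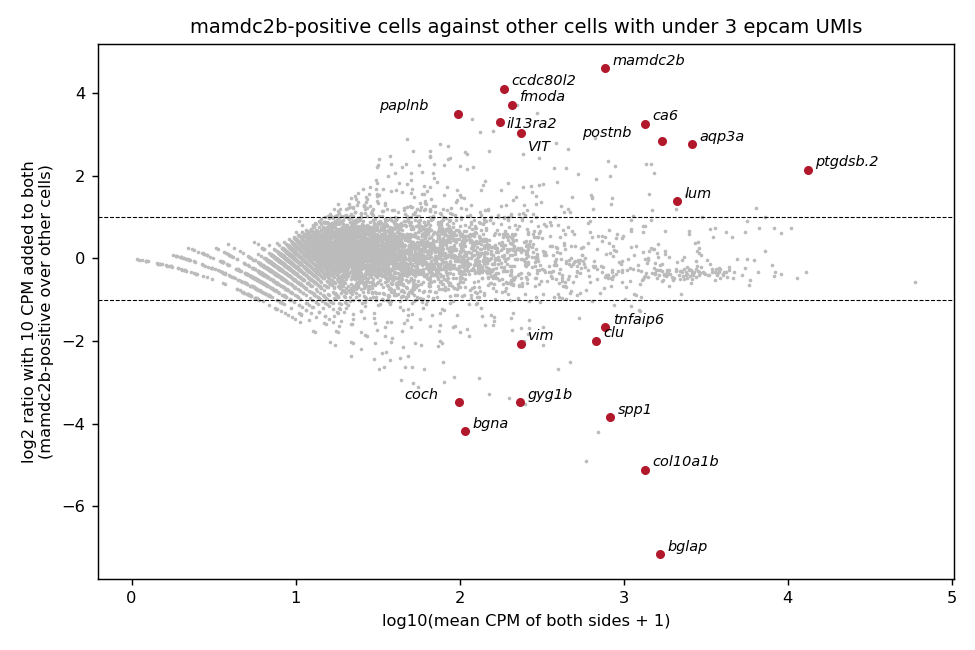
Log2 ratio of mamdc2b-positive cells over other cells with fewer than 3 epcam UMIs (10 CPM added to both; y axis) against the mean level of both sides (x axis, log10), 1 point for each gene shown, with named genes in red. Dashed lines mark 2-fold; mamdc2b is the highest named gene and bglap the lowest.

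Collagens and other groups of genes were then described as lists. Over all genes, 3.86% were at least 2-fold higher and 3.27% at least 2-fold lower in this comparison. Of 16 measured fibrillar and fibril-associated collagen genes, 5 were at least 2-fold higher and 2 at least 2-fold lower than in other cells with few epcam UMIs, with a median log2 ratio of 0.65. The higher members included col12a1a, whose product sits on the surface of type I fibrils, at 1336 CPM (1262 to 1413) and 254 CPM (245 to 262) and with UMIs in 94.97% and 43.1% of cells, and col11a1a, a minor fibrillar chain, at 187 and 33.8 CPM. Col12a1b, col11a1b and col2a1b were at 501, 276 and 328 CPM, against 136, 81.1 and 112 CPM. The lower members were col11a2 and col5a2b. The main fibrillar chains of type I collagen did not pass 2-fold here: col1a1a, col1a1b and col1a2 were at 6685, 7311 and 12979 CPM, against 4283, 3887 and 7835 CPM.

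Among 13 other collagen genes, 6 were at least 2-fold higher and 3 at least 2-fold lower, with a median of 0.53. Col7a1, the anchoring fibril collagen of the skin, was at 137 and 11.5 CPM, and the 3 chains of the microfibrillar type VI collagen, col6a1, col6a2 and col6a3, at 713, 512 and 587 CPM against 249.6, 249 and 238 CPM. Col10a1a, col10a1b and col8a1b were the lower ones. Of 29 collagen processing genes, 3 were higher and 3 lower (median 0.37), among them the procollagen protease adamts2 at 97.8 and 22.0 CPM and the lysyl oxidase loxa at 48.3 and 141 CPM. The small leucine-rich proteoglycans split: of 14 measured genes, 5 were higher and 3 lower (median 0.37). The higher ones include fmoda, which the gate used, so its place in this count was set by the selection. Lum was at 3059.5 CPM (2947 to 3175) and 1168 CPM (1149 to 1186), and dcn at 2048 and 903 CPM. Both biglycan genes and chad were among the lower.

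Matricellular and basement membrane genes, which shape contacts between cells and matrix, had 13 higher and 5 lower of 38 measured (median 0.44). The higher ones included postnb, cyr61l1, tnn at 90.1 and 3.53 CPM, ctgfa at 948 and 335 CPM and the laminin gene lamb1a at 105 and 25.1 CPM. Fibronectin 1b (fn1b), dpt and tnc were among the lower ones. Hyaluronan and proteoglycan genes had 1 higher and 5 lower of 20 (median -0.23): cemip, a hyaluronan-degrading protein, was at 69.2 and 4.14 CPM, and tnfaip6, which binds hyaluronan, was at 364 and 1178 CPM. Elastic fibre genes had 2 higher and 1 lower of 12 (median 0.22), and matrix proteases and inhibitors 2 higher and 3 lower of 26 (median 0.04). The shares over all genes were 3.86% higher and 3.27% lower, and no trend is read from such small counts.

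**Figure D3:**
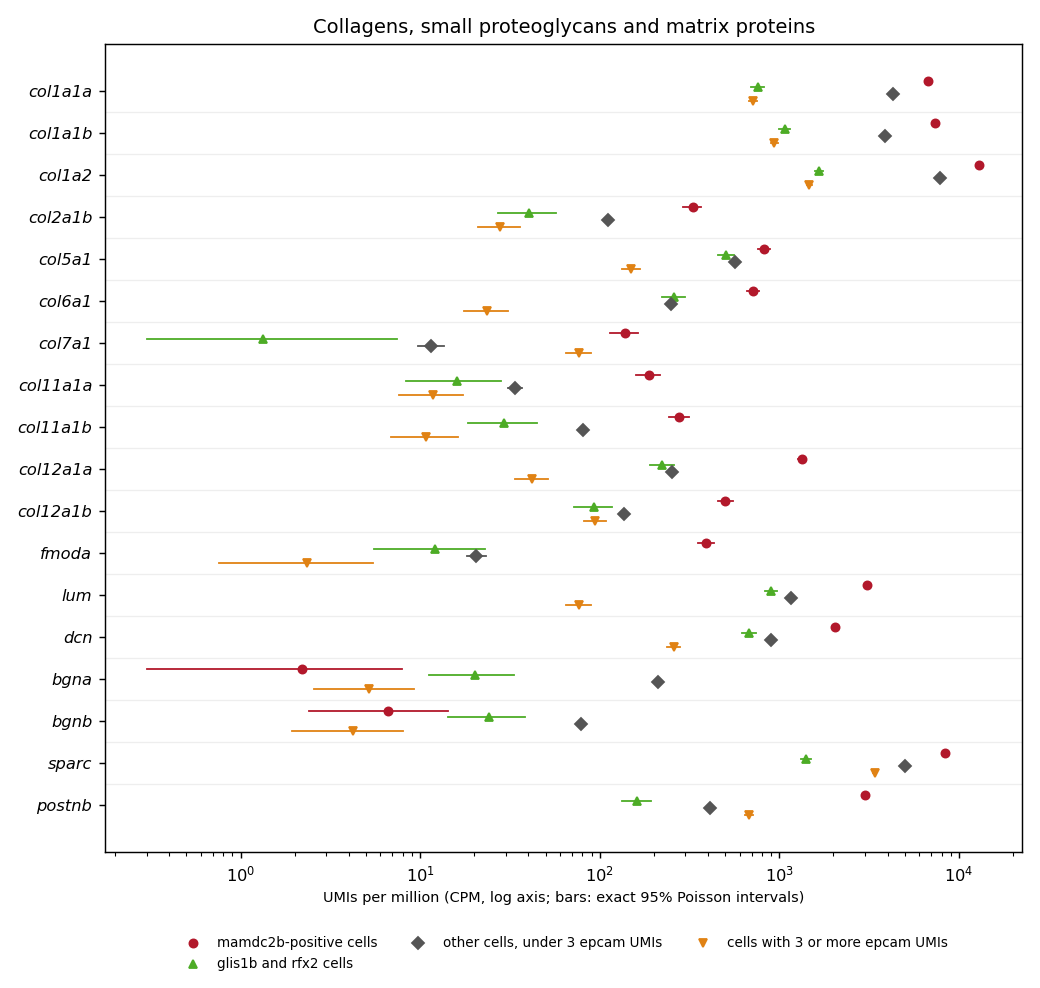
Level of collagens, small leucine-rich proteoglycans, sparc and postnb (CPM, log axis) in mamdc2b-positive cells and the same other groups, with exact 95% Poisson intervals. The mamdc2b-positive cells hold the highest level for all genes shown except bgna and bgnb, where other cells with few epcam UMIs hold the highest. Fmoda was used by the gate, so its place was set by the selection.

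Secreted signals were counted beside the same shares over all genes, 3.86% higher and 3.27% lower. Of 29 Wnt ligands and modulators, 4 were at least 2-fold higher and 0 lower (median 0.34). The ligand gene wnt4a was at 78.0 and 8.98 CPM and wnt11r at 416 and 129.7 CPM, and the secreted Wnt antagonists sfrp2 and sfrp5 were at 1248 and 183 CPM against 449 and 78.6 CPM. Of 38 TGF-beta and BMP genes, 6 were higher and 7 lower (median -0.18), with bmp3, which in mammals antagonises other BMPs, at 152 and 20.2 CPM and with the BMP antagonist grem1a at 0 UMIs. The insulin-like growth factor gene igf2b was at 936 and 335 CPM, in a list with 6 higher and 3 lower of 38 (median -0.11).

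Of 18 retinoic acid genes, 2 were higher and 1 lower (median -0.18), beside 3.86% higher and 3.27% lower over all genes. No trend of the list is read from so few. Cyp26b1, which degrades retinoic acid, was at 734 CPM (679 to 792) and 155 CPM (148 to 161). Aldh1a3, which makes it, was at 42.8 CPM (30.5 to 58.6) and 184 CPM (176 to 191). In gated cells with 2, 3 to 5, and 6 or more mamdc2b UMIs, aldh1a3 was at 177, 33.9 and 8.44 CPM. Its low level is therefore not read for all gated cells. Of 14 prostaglandin genes, 2 were higher, ptgdsb.2 and ptgdsb.1, and 3 lower, ptgs2a, ptger2b and ptgis (median 0.28). The prostaglandin D synthase gene ptgdsb.2 was the most abundant of them, at 21657 and 4919.6 CPM, and its neighbour ptgdsb.1 was at 8946 and 3854 CPM. As ptgdsb.2 and ptgdsb.1 are gene copies that can share reads, their split is uncertain. Ecrg4a, a secreted peptide precursor, was at 2471 and 580.3 CPM, and ucp2, a mitochondrial carrier, at 2437 and 497 CPM. Ecrg4a was also among the leading genes of the cluster of 167 cells led by fgl1. The chemokine, cytokine and complement list had 5 higher and 7 lower of 30 (median -0.26), and the lower ones included the complement gene c7b at 16.5 and 139 CPM.

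Enzymes of tyrosine breakdown were measured as well. Tat, which takes the first step, was at 2129 CPM (2035 to 2226) in mamdc2b-positive cells and 722 CPM (707 to 736) in the other cells, a log2 ratio of 1.55. It had a UMI in 92.7% and 52.7% of cells, 76.0% and 33.6% at 1000 UMIs, and in 23.4% of the epcam cells. Hpdb and hgd, which act after it, were at 1594 and 1089.8 CPM, against 1019 and 726 CPM, and did not pass 2-fold.

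Regulators were counted against the shares over all genes, 3.86% higher and 3.27% lower. Of 85 fibroblast and skeletal transcription factors, 1 was at least 2-fold higher, eya1 at 42.8 and 13.7 CPM, and 6 were lower (median 0.00). Prrx1b was at 124 and 88.2 CPM and twist1a at 370.2 and 391 CPM. Of 54 immediate-early and stress genes, which cell dissociation can raise, 1 was higher and 2 lower (median 0.02), and of 5 cell division genes 0 passed 2-fold in either direction. Of 85 ribosomal protein genes, 0 passed 2-fold, with a median of -0.34. Adhesion, guidance and receptor genes had 7 higher and 7 lower of 84 (median -0.01). The cells held EGFP at 355 and 186 CPM, in 72.6% and 43.8% of cells and in 28.5% and 16.6% at 1000 UMIs, and 43.2 CPM in the epcam cells, while trps1, the gene the transgene marks, was at 17.6 and 15.04 CPM.

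A further group in the same library was made of 161 cells with UMIs of glis1b and rfx2 that met no other gate. The 5 mamdc2b-positive cells that held both genes were kept on the mamdc2b side. The general fibroblast list summed to 6914 CPM in this group. It summed to 37905 CPM in mamdc2b-positive cells and 20228 CPM in other cells with few epcam UMIs. The group is therefore not taken as closer to the mamdc2b-positive cells than those other cells. Against the glis1b and rfx2 cells, 479 genes (7.12%) were at least 2-fold higher and 236 (3.51%) at least 2-fold lower in mamdc2b-positive cells. The median log2 ratio over all genes was 0.10. Median depths were 5138 UMIs in mamdc2b-positive cells and 4559 in the glis1b and rfx2 cells.

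Several collagens were higher than in these cells. Of the 16 fibrillar and fibril-associated collagens, 9 were higher and 0 lower (median 2.06), beside 7.12% higher and 3.51% lower over all genes in this comparison. Col1a1a was at 6685 CPM (6518 to 6855) in mamdc2b-positive cells and 757 CPM (696 to 822) in glis1b and rfx2 cells. Col1a2 was at 12979 and 1665 CPM, and sparc, which binds collagen, at 8314 and 1409 CPM. Ecrg4a was at 2471 and 103 CPM, bmp3 at 152 and 4.02 CPM, and timp4.1, a metalloprotease inhibitor, at 191 and 54.9 CPM. Ca6 was at 2433 and 276 CPM, and postnb at 3002 and 161 CPM.

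Other lists were counted in the same way, beside the same 7.12% higher and 3.51% lower over all genes. Collagen processing genes had 11 higher and 0 lower of 29 (median 0.79), and matricellular and basement membrane genes 17 higher and 1 lower of 38 (median 0.76). Ctgfa, a CCN family gene, was at 948 CPM in mamdc2b-positive cells and 52.2 CPM in glis1b and rfx2 cells. Wnt ligands and modulators had 9 higher and 0 lower of 29 (median 0.45). Sfrp2 was at 1248 and 321 CPM in the same groups, wnt4a at 78.0 and 4.02 CPM, and cyp26b1 at 734 and 95.1 CPM.

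In the other direction, gyg1b was at 29.7 CPM in mamdc2b-positive cells and 734 CPM in glis1b and rfx2 cells. Aldh1a3 was at 42.8 and 372 CPM, c7b at 16.5 and 198 CPM, thy1 at 28.6 and 197 CPM and tnfaip6 at 364 and 1783 CPM. Of the tyrosine enzymes, tat was higher, at 2129 and 753 CPM, and hpdb and hgd did not pass 2-fold, at 1594 and 1089.8 CPM against 1859 and 1266 CPM.

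Levels of some accompanying genes were followed in cells near the limits of the gate. Among cells with a UMI of fmoda or ccdc80l2, ca6 was at 481 CPM with 0 mamdc2b UMIs and 1170.3 CPM with 1, and at 1589, 2036 and 2933 CPM in gated cells with 2, 3 to 5, and 6 or more UMIs. Postnb was at 644, 1029, 1666, 2385 and 3785 CPM in the same order, and VIT at 56.8, 267, 191, 387 and 519 CPM. Gyg1b ran the other way, at 372, 129.6, 91.8, 33.9 and 8.44 CPM. Not all genes climbed within the gate. In the same order, fsta was at 26.6, 107, 289, 244 and 192 CPM, and tat at 1460, 1883, 2295, 2124 and 2083 CPM. The limit runs between the 32 cells with 2 mamdc2b UMIs, just inside, and the 63 cells with 1 mamdc2b UMI and a partner, just outside. VIT was not lower just outside. Neither was zgc:113307, at 347 CPM against 297 CPM just inside, or fgl1, at 724 CPM against 487 CPM. The 105 cells with 2 or more mamdc2b UMIs and no partner had ca6 at 728 CPM and gyg1b at 402 CPM. The median depth moved with the steps too, at 4042 UMIs for 2, 4984 for 3 to 5 and 5689 for 6 or more mamdc2b UMIs, and its part in these differences was not tested.

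**Figure D4:**
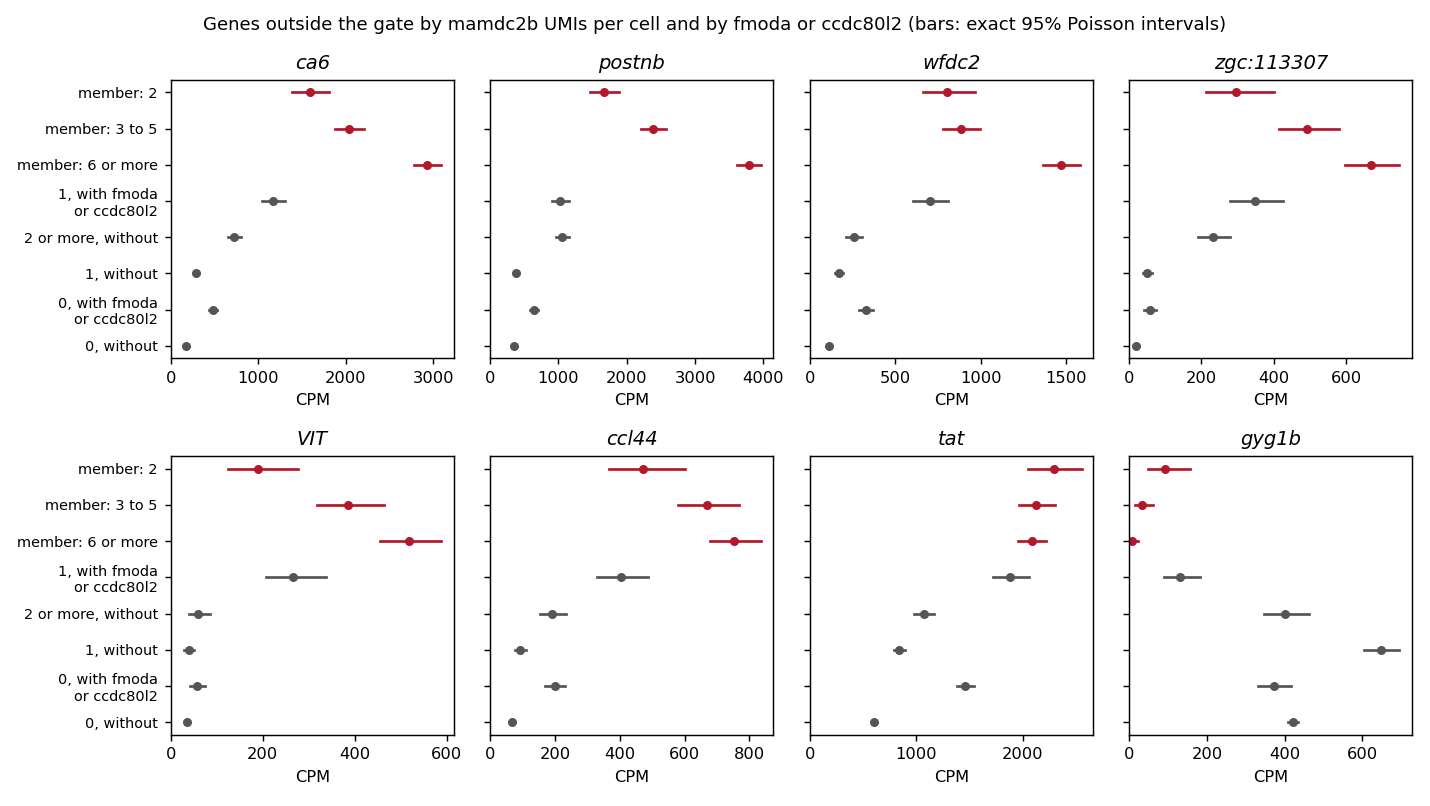
Level of 8 genes outside the gate (CPM, linear axes from 0) by the number of mamdc2b UMIs per cell and by the presence of fmoda or ccdc80l2; gated cells in red on top, cells outside the gate in grey, all with exact 95% Poisson intervals. Ca6, postnb and VIT are highest with 6 or more mamdc2b UMIs and gyg1b is lowest there. Tat does not climb from 2 to 6 or more mamdc2b UMIs in gated cells.

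Levels within the gate were also set out by the partner gene detected, for 37 cells with fmoda only, 53 with ccdc80l2 only and 89 with both. The median was 1 UMI per gated cell for each partner, and the part of sampling in this split was not tested. Ca6 was at 2077 CPM in cells with fmoda only, 2116 CPM with ccdc80l2 only and 2739 CPM with both, and ecrg4a at 3316, 1826 and 2507 CPM. VIT was at 260.3, 359 and 523 CPM.

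Among the 179 cells themselves, 78 of 569 genes with a mean of at least 0.2 UMIs at 1000 UMIs (13.7%) had a variance at least 2 times their mean, where counting alone gives 1. The highest was ptgdsb.2, with a ratio of 13.4 and 0, 16 and 101 UMIs at the lowest, the median and the highest cell. CR383676.1, known only by its clone name, and ptgdsb.1 came next, at 12.5 and 12.1. Angptl7, a secreted angiopoietin-like protein, had a ratio of 10.3, 0 UMIs in 48.6% of the cells and 42 in the highest. The others of the top 10 were fosab, hsp70.2, cxcl18b, hsp70l, jdp2b and ifitm1, with ratios between 6.96 and 8.48, and the fos and hsp70 families are known to respond to cell stress. Of these 10 genes, the other cells with few epcam UMIs had a higher ratio for CR383676.1, angptl7, fosab, hsp70.2, cxcl18b, hsp70l and ifitm1. For those genes a wide spread was not particular to the mamdc2b-positive cells. The other cells had a lower ratio for ptgdsb.2, ptgdsb.1 and jdp2b, at 7.97, 7.80 and 6.18. Their means for these genes were lower too, at 4.82, 3.66 and 1.09 UMIs, against 20.4, 8.30 and 1.70 UMIs in mamdc2b-positive cells. This ratio can rise with the mean, so no wider spread in mamdc2b-positive cells is read for these genes. The other cells also hold several cell types, whose differences add to their spread.

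Across the 179 cells, ptgdsb.2 and ptgdsb.1 moved together most among the 45 pairs of these 10 genes, with a Spearman correlation of 0.68, and every other pair was at 0.30 or lower. The cells share 1 library and were thinned to 1000 UMIs, and a shared read assignment between the copies was not tested.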

How the data were processed

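The authors dissociated pooled jaw joints, sorted live cells and made 10x Chromium 3' v2 libraries, which they processed with Cell Ranger 3.0.0 against GRCz11. The deposited matrices hold raw UMI counts per gene and barcode, for 36355 features, with no normalization. Barcodes were kept as in the opening of the report; the gene limit was the only doublet filter, since Scrublet called 0 of 4876 barcodes and so did not work, and leaving out its top 5% of scores was an alternative (1 of 179 mamdc2b-positive cells had such a score). UMIs were summed over cells of each side, scaled to CPM and compared as log2((CPM + 10)/(CPM + 10)), for genes with at least 100 UMIs, with exact Poisson and Clopper-Pearson intervals (scipy 1.17.1, numpy 2.4.6, pandas 2.3.3, Python 3.11.15). Clustering used Seurat 5.3.0 in R 4.3.3 with 2000 variable features. The comparison code was tried on simulated counts with planted changes. These held counting error only, with no gate and no spread between cells. Genes named were the gate genes and their relatives, the 15 highest and 10 lowest ratios, the 8 highest and lowest against the glis1b and rfx2 cells, the 10 most variable, and genes of the lists. Genes ranked by ratio had at least 100 CPM on the higher side. The highest ones also had a UMI in at least 25% of mamdc2b-positive cells. The members and lists were chosen with earlier results of these data known. Alternatives changed the gate, depth, pseudocount, gene filter and clustering. One gene, and the lists and comparisons that need it, are not reported here. No sequence was printed.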

Additional observations from a re-analysis of the deposited data

How the results depend on the processing

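The gate kept 89 cells when both fmoda and ccdc80l2 were required, and 143 to 242 cells under the other settings. Counts of genes past 2-fold are given as higher and lower. With 1 CPM added they were 665 and 828 against all other kept cells, 565 and 680 against other cells with few epcam UMIs and 1135 and 631 against glis1b and rfx2 cells. With each cell thinned to 1000 UMIs they were 473 and 641, 428 and 576, and 1082 and 665 in the same order. In cells of 3000 to 6000 UMIs, 339 genes were lower than in other cells with few epcam UMIs and 362 were lower than in glis1b and rfx2 cells. Thinned to 1000 UMIs, the share of mamdc2b-positive cells with a UMI was 65.4% for mamdc2b, 33.0% for fmoda, 24.6% for ccdc80l2, 84.4% for postnb and 28.5% for EGFP. Thinned to 2000 UMIs, 164 genes had a variance at least 2 times their mean, and at resolution 0.5 the gated cells made up 39.2% of their cluster. Single-gene ratios were recomputed for only a part of the named genes, chosen by gate, extreme ratio, share of cells or variation. Genes named only as list members, such as lum and dcn, were not recomputed one by one. List medians against other cells with few epcam UMIs moved under the alternatives. They ran from 0.01 to 0.44 for Wnt genes and from 0.02 to 0.48 for small leucine-rich proteoglycans, so both came near 0 at their lowest. The range was 0.53 to 1.14 for fibrillar and fibril-associated collagens, 0.14 to 0.88 for other collagens and 0.15 to 0.57 for matricellular and basement membrane genes. Of 57 recomputed genes past 2-fold against other cells with few epcam UMIs, 54 to 57 stayed past it under each of 14 settings. These 57 include mamdc2b, fmoda and ccdc80l2. Those lost under any setting were krt5, rfx2, ccdc80l1, ptgdsb.1 and cfl1l. One of these settings, which left the other cells of the same cluster out of the other side, was chosen after seeing the data, and kept all 57. The cells it left out held many of the same genes, so it tends to widen the ratios and is not read as support. No paired analysis was possible because each sort has 1 library.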
